A study of Homo sapiens with 8 samples.

Results

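The genes described here are 34 molecular chaperones, their cochaperones and 2 heat shock transcription factors, measured by RNA sequencing in cells made from human embryonic stem cells. They were chosen by name from the deposited table of read counts, which holds 61209 gene names. They are the 8 subunits of the CCT chaperonin, 4 HSP90 genes, 7 genes of the HSP70 and HSP110 families, the mitochondrial HSP60 and HSP10 genes, 3 small heat shock genes, 5 HSP40 genes, 3 cochaperones, and HSF1 and HSF2. All 34 were among the 22554 genes with enough counts to be tested, with mean levels from 5.38 to 1607.3 CPM, the read count scaled to a common library size.

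The cells were of the established human embryonic stem cell line H1 and of the genotype Msx1-P2A-tdTomato, which marks cells that express MSX1 with a red fluorescent protein. On day 0 all groups received 50 ng/mL Activin A, 10 ng/mL FGF2, 40 ng/mL BMP4 and 6 µM CHIR99021, which activates WNT signalling, and from day 1 they received 60 ng/mL BMP4 and 1 µM CHIR99021. On day 4 the cells were spun into pellets of 25000 cells, and FGF8+10 pellets were grown in 500 ng/mL of both FGF8 and FGF10, while the medium of the Mock pellets is not described. On day 8 the cells were sorted by the reporter and by the surface receptor PDGFRA. The groups, with 2 libraries each, were Msx1+Pdgfra+ cells (here Pdgfra-positive) and Msx1+Pdgfralow cells (here Pdgfra-low) after FGF8+10 and after Mock. The study asks what FGF8+10 does to cells on the way from lateral plate mesoderm to limb mesenchyme, and the design compares the treatments within each gate and the gates within each treatment. Libraries are labelled as biological replicates, without word of separate differentiations, and p-values therefore cover the spread between libraries alone, which may be technical.

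Chaperones bind unfolded or partly folded proteins and help them reach or regain their native shape. HSP70 proteins bind short exposed stretches of a chain and are loaded by HSP40 partners, HSP90 proteins act later on folding intermediates such as kinases and steroid receptors, and the ring-shaped CCT chaperonin encloses its clients, chief among them actin and tubulin. The mitochondrion and the endoplasmic reticulum hold their own sets. After heat or other protein damage the factor HSF1 binds repeats of the unit GAA and its complement in the promoters of many of these genes and raises their transcription, while several members are made at high level without stress.

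The heat shock unit can be read in the members' promoters, and the stretches are shown because the genes that hold it did not move as 1 group. RefSeq windows from 250 bases before to 50 bases after the transcription start (GRCh38.p14) were matched for 31 of the 34 members, with no window for CCT6A, CRYAB and HSF1, and gave 43 windows. On either strand, 2 adjoining units, GAA and TTC in either order with 2 bases between them, were present in 18 of these windows (41.9%) and in 13.5% of all 35116 windows of the same length. The longer match of 3 alternating units, each 2 bases from the next, which contains the shorter one, was present in 6 member windows (14%) and in 0.49% of all windows. In the stretches that follow, each 30 bases written 5′ to 3′ on the gene's own strand, capitals mark 1 match to 3 units.
HSPA8 (chr11:123062170-123062199, minus strand): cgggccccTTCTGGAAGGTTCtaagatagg
HSP90AA1 (chr14:102087111-102087140, minus strand): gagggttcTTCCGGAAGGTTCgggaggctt
HSP90AB1 (chr6:44247823-44247852, plus strand): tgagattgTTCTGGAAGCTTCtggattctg
HSPD1 (chr2:197500059-197500088, minus strand): attttctgGAAAGTTCTGGAAccgagcgag
DNAJA1 (chr9:33025268-33025297, plus strand): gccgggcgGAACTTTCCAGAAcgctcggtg
DNAJB6 (chr7:157336865-157336894, plus strand): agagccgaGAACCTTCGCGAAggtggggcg
Of these 6 genes, HSPA8 and DNAJB6 were higher with FGF8+10 in both gates, HSP90AB1 was lower in both, and HSP90AA1, HSPD1 and DNAJA1 were lower in Pdgfra-positive and higher in Pdgfra-low cells, as given below. A match is a description of the letters and not evidence of binding.

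The paired inducible genes HSPA1A and HSPA1B each held a match to 2 units only, in windows that were 92.0% identical over 301 aligned bases, and capitals mark that match here.
HSPA1A (chr6:31815426-31815455, plus strand): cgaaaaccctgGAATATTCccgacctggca
HSPA1B (chr6:31827622-31827651, plus strand): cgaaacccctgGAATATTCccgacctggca
The endoplasmic reticulum chaperones HSPA5 and HSP90B1 held instead the ER stress element, CCAAT followed after 9 bases by CCACG on either strand, which was present in 0.0769% of all windows, and capitals mark it in the next stretches.
HSPA5 (chr9:125241385-125241414, minus strand): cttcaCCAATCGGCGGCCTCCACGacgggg
HSP90B1 (chr12:103930211-103930240, plus strand): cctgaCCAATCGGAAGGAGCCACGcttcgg
Both genes were lower in Pdgfra-positive than in Pdgfra-low cells with FGF8+10, at log2 fold changes of -0.34 and -0.42, and HSP90B1 alone was higher with FGF8+10 in Pdgfra-low cells.

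The libraries held 47698561 to 64390444 counts, and within each group log2 CPM of the pair of libraries had a Pearson's r of 0.998 over genes, which are not independent replicates. The sort gene PDGFRA stood in Pdgfra-positive cells at 714 ± 2.9 CPM (FGF8+10) and 454 ± 1.9 CPM (Mock), and in Pdgfra-low cells at 286 ± 9.3 CPM (FGF8+10) and 192 ± 3.6 CPM (Mock) (mean ± SD, n = 2 libraries). Levels, shares of counts and ratios of levels are given in the same way throughout. For log2 fold changes and differences of effects, ± gives the standard error (SE) of the fit. MSX1, the gene of the reporter, had 50.3 ± 1.7 CPM (FGF8+10) and 21.7 ± 0.57 CPM (Mock) in Pdgfra-positive cells, against 50.7 ± 3.0 CPM (FGF8+10) and 26.2 ± 0.024 CPM (Mock) in Pdgfra-low cells. All 12 limb mesenchyme markers had counts, led by HAND2, and their summed level was 976.9 to 982.2 CPM in FGF8+10 Pdgfra-positive, 637.3 to 648.4 in FGF8+10 Pdgfra-low, 884.8 to 886.0 in Mock Pdgfra-positive and 786.7 to 802.9 in Mock Pdgfra-low libraries. Both sort genes were higher with FGF8+10 and the sort followed it, so a gate may hold different cells under the 2 treatments, and in these bulk libraries a change in which cells were taken and a change of RNA per cell cannot be told apart. Counting ignored strand and left out reads that overlapped several genes or had several placements, so genes with overlaps or near-identical copies were counted on part of their sequence. Among members the exon bases shared with another gene were 36.6% for HSPA1B, 30.8% for CCT5, 28.5% for TRAP1, 17.9% for HSPE1, 16.9% for CCT4, 15.1% for HSPA8, 13.6% for CRYAB and 12.4% for TCP1, and under 10% for each of the others.

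Chaperone RNA was most abundant in the Pdgfra-low cells that had received FGF8+10. Together the 34 members took 1.22% ± 0.0033 of all counts there, against 0.855% ± 0.0058 in FGF8+10 Pdgfra-positive, 0.859% ± 0.0038 in Mock Pdgfra-positive and 0.953% ± 0.0086 in Mock Pdgfra-low cells. In 19 of the 34 members (55.9%) both FGF8+10 Pdgfra-low libraries lay above the other 6 libraries. The same was true of 19.5% of all tested genes, and of 30.8% of the 10042 tested genes with a mean of at least 10 CPM. These 19 were the 8 chaperonin subunits, HSP90AA1, HSP90B1, HSPA4, HSPA8, HSPH1, HSPD1, HSPE1, DNAJA1, DNAJB6, STIP1 and AHSA1. The remaining 15 were HSP90AB1, TRAP1, HSPA1A, HSPA1B, HSPA5, HSPA9, HSPB1, HSPB8, CRYAB, DNAJA2, DNAJB1, DNAJB4, BAG3, HSF1 and HSF2.

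**Figure D1:**
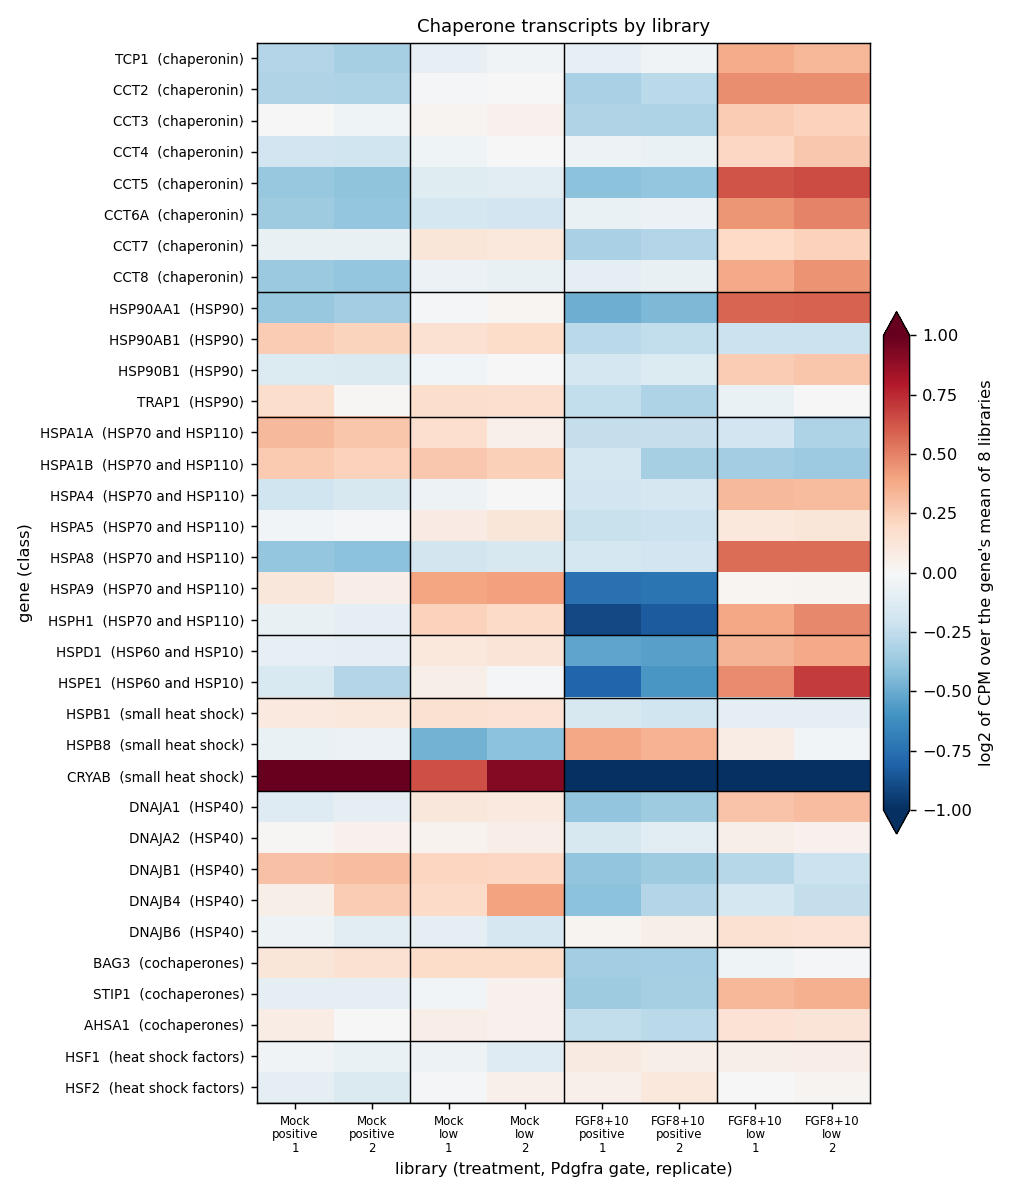
Level of each of the 34 members in the 8 libraries, as log2 of CPM over the member's mean of the libraries, with colours ending at -1 and 1; rows are members ordered by class and columns are libraries, 2 per group. The 2 FGF8+10 Pdgfra-low libraries are the highest of the 8 in 19 of the 34 rows.

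With FGF8+10 more of these genes fell than rose in Pdgfra-positive cells, and more rose than fell in Pdgfra-low cells. In Pdgfra-positive cells 9 members were higher and 21 lower than with Mock by edgeR's quasi-likelihood test at a Benjamini-Hochberg adjusted p under 0.05, where 25.8% of all tested genes were higher and 25.1% lower. In Pdgfra-low cells 20 were higher and 10 lower, where 27.9% of all tested genes were higher and 27.7% lower. Among the 10042 tested genes with a mean of at least 10 CPM, 40.9% were higher and 33% lower in Pdgfra-positive cells. In Pdgfra-low cells 43.2% of these were higher and 34.7% lower. The median log2 fold change of the members was -0.24 and 0.20 in the 2 gates, beside -0.01 and -0.02 over all tested genes. The effects were small for most members. Of the 34, 4 were called lower by at least 1.5-fold in Pdgfra-positive cells, where 14.2% of all tested genes were. In Pdgfra-low cells 3 of the 34 were called higher by that much, where 14.6% of all tested genes were. Among called genes alone, 1.5-fold was passed by 4 of the 21 members lower in Pdgfra-positive cells, against 3203 of 5658 genes. It was passed by 3 of the 20 members higher in Pdgfra-low cells, against 3298 of 6300 genes. Scaling by library totals alone, which raised the median of all genes by 0.161 and 0.146 on the log2 scale and changed the split of all genes from 5811 higher and 5658 lower to 8164 and 3991 in Pdgfra-positive cells and from 6300 and 6256 to 8113 and 4672 in Pdgfra-low cells, gave 14 higher and 17 lower members in Pdgfra-positive and 24 and 8 in Pdgfra-low cells. Small changes are therefore relative to the average gene.

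Set side by side, the calls in the 2 gates split the members into several sets. Higher in both gates were TCP1, CCT4, CCT6A, CCT8, HSPA8, HSPB8, DNAJB6 and HSF1. Lower in both were 10 members, HSP90AB1, TRAP1, HSPA1A, HSPA1B, HSPA9, HSPB1, CRYAB, DNAJB1, DNAJB4 and BAG3. Another 8 were lower with FGF8+10 in Pdgfra-positive cells and higher in Pdgfra-low cells, namely CCT3, CCT7, HSP90AA1, HSPH1, HSPD1, HSPE1, DNAJA1 and STIP1. No member was higher in Pdgfra-positive and lower in Pdgfra-low cells. The shares of all tested genes with each pair of calls were not computed, so these counts have no background beside them.

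The 2 effects differed in the same direction wherever their difference passed the test. The difference of the log2 effects, taken as Pdgfra-positive minus Pdgfra-low, was below 0 at an edgeR adjusted p under 0.05 in 26 members and above 0 in 0, where 14% and 12% of all tested genes were below and above 0. Among tested genes with a mean of at least 10 CPM, 25.7% were below and 20.7% above 0. Of the members, DESeq2 also called 26 and 0, and at an unadjusted p under 0.05 edgeR had 27 below and 1 above 0, the latter HSF2. The median difference over the members was -0.28, beside -0.01 over all tested genes. For 7 members it exceeded 1.5-fold, where 4.54% of tested genes did so in that direction. These were CCT5, HSP90AA1, HSPH1, HSPD1, HSPE1, CRYAB and STIP1.

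**Figure D2:**
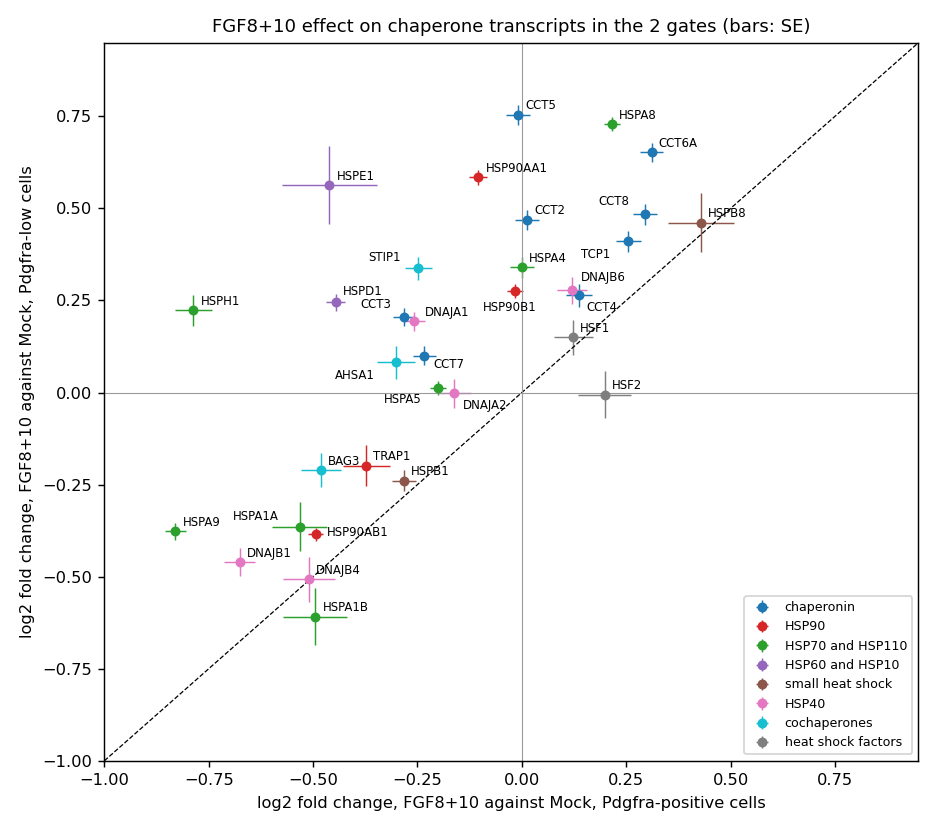
Log2 fold change of FGF8+10 against Mock in Pdgfra-positive cells (x axis) and Pdgfra-low cells (y axis) for 33 members, coloured by class, with bars for the SE and the diagonal drawn where the 2 effects are equal; CRYAB lies outside the axes at -5.11 and -3.90. Of the 34 members, 26 had a difference that passed the test, all with the effect in Pdgfra-low cells the more positive.

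Between the gates, most members were lower in Pdgfra-positive than in Pdgfra-low cells with FGF8+10, and 17 of 34 were with Mock. With FGF8+10, 28 members were lower and 1 higher in Pdgfra-positive cells by edgeR's test, where 21.7% of all tested genes were lower and 19.6% higher, and the members' median log2 fold change was -0.41. With Mock, 17 were lower and 3 higher, where 13.4% and 12.4% of tested genes were lower and higher, and the median was -0.13. Among tested genes with a mean of at least 10 CPM, 38.2% were lower and 30.2% higher with FGF8+10, and 23.7% and 20.4% with Mock. At least 1.5-fold lower were 11 of the 34 members with FGF8+10, where 6.85% of tested genes were. With Mock 0 members and 3.41% of tested genes were. The calls of CRYAB, DNAJB1, DNAJB6, HSP90AB1 and HSPB1 with FGF8+10 and of STIP1 with Mock were each lost without at least 1 library. With FGF8+10 the only member higher in Pdgfra-positive cells was HSPB8. With Mock the 3 were HSPB8, HSP90AB1 and HSPA1A, of which HSPB8 alone kept the call without Mock Pdgfra-positive replicate 1 or without a filter on low counts.

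The CCT chaperonin, 8 related subunits that build each ring and fold actin and tubulin, rose in Pdgfra-low cells with FGF8+10 as a whole. All 8 subunits were higher there, with log2 fold changes from 0.10 (CCT7) to 0.75 (CCT5), and their summed level went from 1569 ± 7.0 to 2100 ± 20 CPM. In Pdgfra-positive cells 4 subunits were higher (TCP1, CCT4, CCT6A and CCT8), 2 lower (CCT3 and CCT7) and CCT2 and CCT5 not called, and the summed level was 1360 ± 15 CPM with Mock and 1401 ± 13 CPM with FGF8+10. The difference of effects was called in all 8, by -0.13 (CCT4) to -0.76 (CCT5). The call for CCT4 was lost under 8 of 15 alternatives, 6 of which left out 1 library, with values down to -0.08 (adjusted p = 0.294) without FGF8+10 Pdgfra-low replicate 2. That for TCP1 was lost without replicate 1 of either FGF8+10 group (-0.12, adjusted p = 0.0570 and 0.0633).

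CCT5, the epsilon subunit (chr5:10249929-10266389, plus strand, GRCh38), had the largest rise of the subunits in Pdgfra-low cells. It stood at 149.9 and 148 CPM in the Mock Pdgfra-positive libraries, 179 and 180.3 CPM in Mock Pdgfra-low, 147 and 149 CPM in FGF8+10 Pdgfra-positive and 301 and 305 CPM in FGF8+10 Pdgfra-low. The FGF8+10 Pdgfra-low libraries were far above the other 6, and the 2 Pdgfra-positive groups overlapped. With FGF8+10 the rise in Pdgfra-low cells was 1.69-fold (log2 fold change 0.75 ± 0.027, edgeR adjusted p = 1.81e-27), against -0.01 ± 0.028 in Pdgfra-positive cells (edgeR adjusted p = 0.826). The difference of these effects was -0.76 ± 0.039 (edgeR adjusted p = 1.74e-20).

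CCT3, the gamma subunit (chr1:156308968-156367873, minus strand), moved in opposite directions in the gates. It stood at 269 and 262 CPM in Mock Pdgfra-positive, 275 and 279 CPM in Mock Pdgfra-low, 219 and 218 CPM in FGF8+10 Pdgfra-positive and 321 and 317 CPM in FGF8+10 Pdgfra-low libraries. No 2 groups overlapped, and the FGF8+10 groups were the highest and the lowest. Its log2 fold change with FGF8+10 was -0.28 ± 0.025 in Pdgfra-positive and 0.20 ± 0.025 in Pdgfra-low cells (edgeR adjusted p = 2.52e-13 and 1.08e-09). CCT7, the eta subunit, followed the same pattern at -0.23 and 0.10. Its call in Pdgfra-positive cells was lost under library totals (-0.06, adjusted p = 0.0535) and that in Pdgfra-low cells under upper-quartile scaling (0.04, adjusted p = 0.266).

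CCT6A, the zeta subunit, stood at 191 and 187 CPM in Mock Pdgfra-positive, 217 and 214 CPM in Mock Pdgfra-low, 234 and 235 CPM in FGF8+10 Pdgfra-positive and 333 and 344 CPM in FGF8+10 Pdgfra-low libraries. It was higher with FGF8+10 in both gates without overlap, by 0.31 ± 0.027 and 0.65 ± 0.026 on the log2 scale. TCP1, the alpha subunit, rose by 0.26 and 0.41, CCT8, the theta subunit, by 0.29 and 0.48, and CCT4, the delta subunit, by 0.14 and 0.26 in Pdgfra-positive and Pdgfra-low cells. CCT2, the beta subunit, had 0.01 in Pdgfra-positive cells, not called, and rose by 0.47 in Pdgfra-low cells. TCP1 overlaps the metabolic gene ACAT2 on the other strand, which was counted at 1914 to 3583 reads in the Pdgfra-positive and Mock libraries and at 7405 and 8254 reads in FGF8+10 Pdgfra-low, and the part of that overlap in the TCP1 values was not tested.

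Per kilobase of annotated exon the subunits were not level. With FGF8+10, CCT6A was the most abundant, at 61.0 ± 0.26 CPM per kilobase in Pdgfra-positive and 88.0 ± 2.1 in Pdgfra-low cells, followed by CCT3 and CCT8. With Mock, CCT3 led at 68.8 ± 1.2 and 71.7 ± 0.60 CPM per kilobase, followed by CCT7 and CCT6A. CCT5 was last in 3 groups, at 26.2 ± 0.33 to 31.9 ± 0.17 CPM per kilobase, and TCP1 was last in FGF8+10 Pdgfra-low cells at 47.6 ± 0.97. Neighbours in these orders differed in both libraries except CCT2 and TCP1 in FGF8+10 Pdgfra-positive cells. The highest subunit was 2.32 ± 0.020, 1.85 ± 0.082, 2.61 ± 0.021 and 2.25 ± 0.0069 times the lowest in FGF8+10 Pdgfra-positive, FGF8+10 Pdgfra-low, Mock Pdgfra-positive and Mock Pdgfra-low libraries. Over coding length CCT4 was last in all 4 groups and these ratios were 1.79, 2.11, 2.17 and 2.02, so the order of levels between subunits rests on the length used, while CCT3 led with Mock and CCT6A with FGF8+10 under both.

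**Figure D3:**
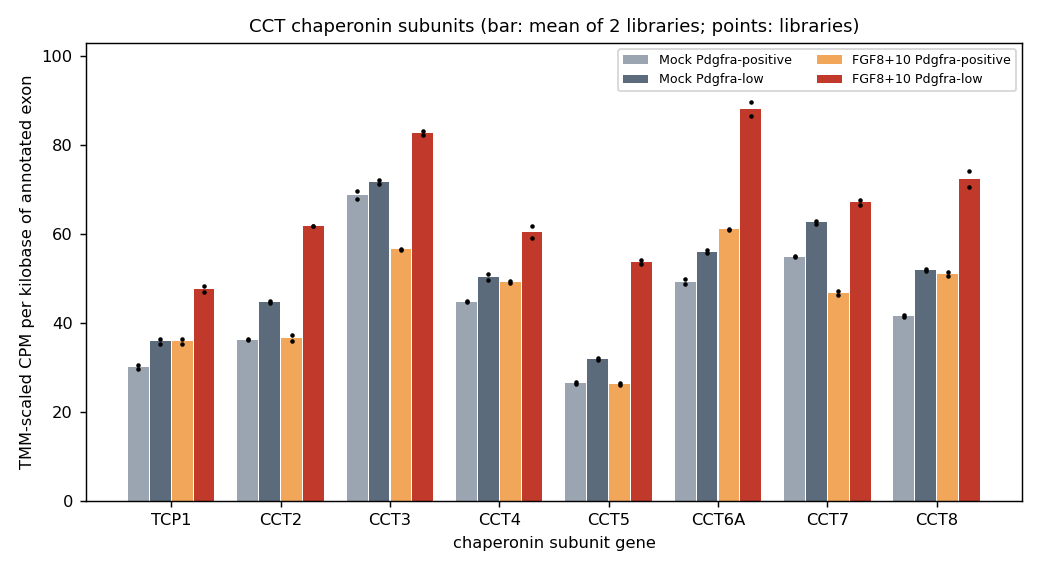
Level of the 8 chaperonin subunits (x axis) in CPM per kilobase of annotated exon (y axis), with points for the 2 libraries of each of the 4 groups. The FGF8+10 Pdgfra-low points are the highest of the 4 groups for every subunit, and CCT6A (88.0) and CCT3 (82.6) are the highest subunits in that group.

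Among the HSP90 genes, the inducible and the constitutive cytosolic forms parted. HSP90AA1, the stress-inducible form (chr14:102080742-102139699, minus strand), stood at 575 and 586 CPM in Mock Pdgfra-positive, 738 and 757 CPM in Mock Pdgfra-low, 532 and 548 CPM in FGF8+10 Pdgfra-positive and 1118 and 1122 CPM in FGF8+10 Pdgfra-low libraries. The groups did not overlap, and the FGF8+10 Pdgfra-low libraries were the highest. It rose 1.499-fold with FGF8+10 in Pdgfra-low cells (log2 fold change 0.58 ± 0.021, edgeR adjusted p = 1.01e-27) and was -0.10 ± 0.021 in Pdgfra-positive cells (edgeR adjusted p = 4.22e-05), a small fall that turned to 0.07 under library totals. The difference of effects was -0.69 ± 0.030 (edgeR adjusted p = 2.72e-23).

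HSP90AB1, the constitutive form (chr6:44246166-44253888, plus strand), had the highest level of all members in every library, in CPM per kilobase of exon. That rank depends on the length used, 2980 exon bases against 4849 for HSPA8 and 13092 for HSP90B1. In plain CPM both stood above it in FGF8+10 Pdgfra-low cells, at 1543.7 ± 4.5 and 1576 ± 18 against 1384.7 ± 2.0. HSP90AB1 stood at 1913 and 1872 CPM in Mock Pdgfra-positive, 1789.5 and 1827 CPM in Mock Pdgfra-low, 1335 and 1352 CPM in FGF8+10 Pdgfra-positive and 1386 and 1383 CPM in FGF8+10 Pdgfra-low libraries, so every Mock library lay above every FGF8+10 library. It fell by 0.49 and 0.38 on the log2 scale in Pdgfra-positive and Pdgfra-low cells. Between the gates its log2 fold change was -0.04 with FGF8+10, which turned to 0.01 under upper-quartile scaling, and 0.07 with Mock. Both of these calls were lost when single libraries were left out. Per kilobase, HSP90AA1 made up 15.0% and 15.5% of the pair in Mock Pdgfra-positive, 19.4% and 19.5% in Mock Pdgfra-low, 18.9% and 19.2% in FGF8+10 Pdgfra-positive and 32.0% and 32.2% in FGF8+10 Pdgfra-low libraries. The FGF8+10 Pdgfra-low libraries thus had the largest share of the inducible form, with no overlap with the other groups. The size of these shares depends on the length used. HSP90AA1 and HSP90AB1 have 5097 and 2980 annotated exon bases, but 2562 and 2172 coding bases.

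The organelle forms also parted. HSP90B1, the endoplasmic reticulum form that folds secreted and surface proteins, stood at 1194 ± 4.4 and 1180.4 ± 23 CPM in Pdgfra-positive cells with Mock and FGF8+10, and at 1301 ± 18 and 1576 ± 18 CPM in Pdgfra-low cells, where it rose by 0.28. TRAP1, the mitochondrial form, fell with FGF8+10 by 0.37 and 0.20 in the 2 gates. The fall of TRAP1 in Pdgfra-low cells was lost under library totals (-0.04, adjusted p = 0.586), and its exons overlap DNASE1 on the other strand.

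Among the HSP70 genes the constitutive HSPA8 rose in both gates while the inducible pair HSPA1A and HSPA1B fell. HSPA8, the constitutive cytosolic HSP70 that also uncoats vesicles (chr11:123057489-123063230, minus strand), stood at 803 and 788 CPM in Mock Pdgfra-positive, 925 and 937 CPM in Mock Pdgfra-low, 929.6 and 918 CPM in FGF8+10 Pdgfra-positive and 1547 and 1540.5 CPM in FGF8+10 Pdgfra-low libraries. FGF8+10 libraries lay above Mock libraries in each gate, and the FGF8+10 Pdgfra-low libraries were well above the other 6. Its rise was 1.66-fold in Pdgfra-low cells (log2 fold change 0.73 ± 0.019, edgeR adjusted p = 4.09e-33) and 1.16-fold in Pdgfra-positive cells (0.22 ± 0.019, edgeR adjusted p = 1.55e-13). The difference of effects was -0.51 ± 0.027 (edgeR adjusted p = 2.73e-20).

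HSPA1A, a stress-inducible HSP70 (chr6:31815543-31817946, plus strand), stood at 35.3 and 34.2 CPM in Mock Pdgfra-positive, 31.8 and 29.3 CPM in Mock Pdgfra-low, 24.0 and 24.1 CPM in FGF8+10 Pdgfra-positive and 24.7 and 22.7 CPM in FGF8+10 Pdgfra-low libraries, with all FGF8+10 libraries below all Mock libraries. Its neighbour HSPA1B (chr6:31827738-31830254, plus strand) stood at 24.2 and 23.6, 24.4 and 23.8, 17.8 and 16.0, and 15.9 and 15.7 CPM in the same order of groups, again with FGF8+10 below Mock. With FGF8+10 HSPA1A fell by 0.53 and 0.36 and HSPA1B by 0.49 and 0.61 on the log2 scale in Pdgfra-positive and Pdgfra-low cells, and the difference of effects was not called for either (edgeR adjusted p = 0.21 and 0.526). The 2 genes are near-identical copies, and reads that fit both were dropped, so their levels are lower bounds and their split is uncertain. Per kilobase the pair made up 12.8% and 12.7% of HSPA1A, HSPA1B and HSPA8 together in Mock Pdgfra-positive, 10.7% and 10.1% in Mock Pdgfra-low, 8.17% and 7.96% in FGF8+10 Pdgfra-positive and 4.94% and 4.71% in FGF8+10 Pdgfra-low libraries. The groups did not overlap, and the share was lowest where HSPA8 was highest. The size of the share depends on the length used. HSPA1A, HSPA1B and HSPA8 have 2404, 2517 and 4849 annotated exon bases, but 1923, 1923 and 1938 coding bases.

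The HSP110 gene HSPH1, whose product exchanges nucleotides on HSP70 and holds unfolded chains (chr13:31134973-31162388, minus strand), showed the largest drop between the gates in this family. It stood at 70.7 and 69.8 CPM in Mock Pdgfra-positive, 87.1 and 84.8 CPM in Mock Pdgfra-low, 39.7 and 41.7 CPM in FGF8+10 Pdgfra-positive and 97.0 and 104 CPM in FGF8+10 Pdgfra-low libraries. The 4 groups did not overlap, and the FGF8+10 groups were the lowest and the highest. With FGF8+10 HSPH1 fell by 0.79 in Pdgfra-positive cells and rose by 0.22 in Pdgfra-low cells, a difference of effects of -1.01 ± 0.060 (edgeR adjusted p = 2.79e-18). HSPA4, a related nucleotide exchange factor, did not pass the test in Pdgfra-positive cells (162 ± 3.5 CPM with Mock and 162 ± 1.7 with FGF8+10) and rose by 0.34 in Pdgfra-low cells.

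HSPA9, the mitochondrial HSP70 that pulls imported proteins into the matrix (chr5:138553756-138575675, minus strand), stood at 351 and 339 CPM in Mock Pdgfra-positive, 426 and 429.7 CPM in Mock Pdgfra-low, 193 and 195 CPM in FGF8+10 Pdgfra-positive and 329 and 329.9 CPM in FGF8+10 Pdgfra-low libraries. It was lower with FGF8+10 in both gates without overlap, by 1.78-fold in Pdgfra-positive (log2 fold change -0.83 ± 0.025, edgeR adjusted p = 1.1e-30) and 1.30-fold in Pdgfra-low cells (-0.38 ± 0.024, edgeR adjusted p = 2.28e-18). HSPA5, the endoplasmic reticulum HSP70 (BiP), had 1134 ± 4.2 and 986 ± 4.2 CPM in Pdgfra-positive cells with Mock and FGF8+10, a fall of 0.20 that was lost under library totals (-0.03, adjusted p = 0.193). In Pdgfra-low cells it stood at 1234 ± 21 and 1244 ± 11 CPM and was not called (edgeR adjusted p = 0.633).

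HSPD1 and HSPE1, the mitochondrial HSP60 chaperonin and its HSP10 lid, have overlapping annotated spans on chromosome 2 (chr2:197486584-197516737, minus strand, and chr2:197500140-197503449, plus strand). They are read from 1 shared promoter region in opposite directions. Their annotated exons share 135 bases, and reads that overlapped both genes were left out. HSPD1 stood at 386 and 383 CPM in Mock Pdgfra-positive, 439 and 449 CPM in Mock Pdgfra-low, 284 and 281 CPM in FGF8+10 Pdgfra-positive and 519 and 534 CPM in FGF8+10 Pdgfra-low libraries. HSPE1 stood at 9.95 and 9.03, 11.5 and 11, 6.38 and 7.39, and 15.4 and 17.9 CPM in the same order. In both genes the 4 groups kept 1 order without overlap, from FGF8+10 Pdgfra-positive, the lowest, through Mock Pdgfra-positive and Mock Pdgfra-low to FGF8+10 Pdgfra-low, the highest. With FGF8+10, HSPD1 fell by 0.45 and HSPE1 by 0.46 on the log2 scale in Pdgfra-positive cells, and they rose by 0.25 and 0.56 in Pdgfra-low cells. The difference of effects was -0.69 ± 0.033 for HSPD1 and -1.02 ± 0.16 for HSPE1 (edgeR adjusted p = 8.28e-22 and 8.29e-07). HSPE1 has 26 pseudogene names in the table, whose counts came to 4.95% to 19.3% of its own, so its level is uncertain.

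**Figure D4:**
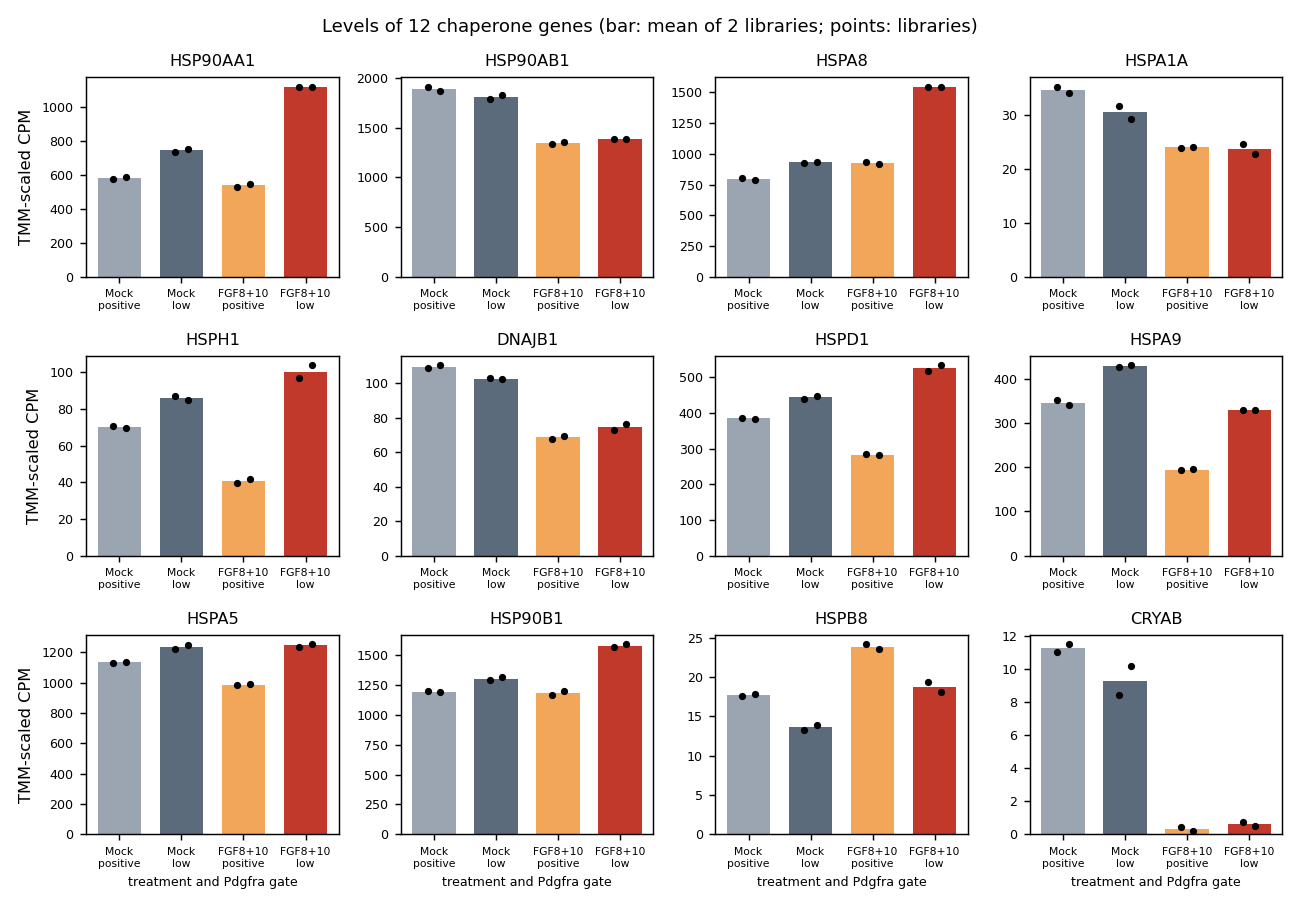
Level of 12 members in TMM-scaled CPM (y axis), 1 panel per gene, with bars for the mean of each of the 4 groups along the x axis and points for the 2 libraries. HSP90AA1, HSPA8 and HSPD1 are highest in the FGF8+10 Pdgfra-low libraries, whereas CRYAB lies between 0.206 and 0.773 CPM in all FGF8+10 libraries and between 8.43 and 11.5 CPM with Mock.

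The small heat shock genes, whose products hold unfolded proteins without using ATP, did not share a pattern. CRYAB, alpha-B crystallin, abundant in lens and in heart and skeletal muscle (chr11:111908564-111923722, minus strand), stood at 11.04 and 11.5 CPM in Mock Pdgfra-positive, 8.43 and 10.2 CPM in Mock Pdgfra-low, 0.444 and 0.206 CPM in FGF8+10 Pdgfra-positive and 0.773 and 0.477 CPM in FGF8+10 Pdgfra-low libraries. Every FGF8+10 library was far below every Mock library. With FGF8+10 CRYAB was 34.7-fold lower in Pdgfra-positive cells (log2 fold change -5.11 ± 0.23, edgeR adjusted p = 8.78e-24) and 14.9-fold lower in Pdgfra-low cells (-3.90 ± 0.21, edgeR adjusted p = 1.13e-20), the largest change of any member. Its difference of effects, -1.21 ± 0.36 (edgeR adjusted p = 0.00951), was lost without FGF8+10 Pdgfra-low replicate 1 (-0.82, adjusted p = 0.194) and without FGF8+10 Pdgfra-positive replicate 2 (-0.74, adjusted p = 0.182), as was its call between the gates with FGF8+10.

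Most tested cardiac muscle markers were also lower with FGF8+10, but their most abundant gene was not. Of 9 tested cardiac markers, 6 were lower and 1 higher with FGF8+10 in Pdgfra-positive cells and 7 lower and 1 higher in Pdgfra-low cells. Of all tested genes, 25.1% were lower and 25.8% higher in Pdgfra-positive cells, and 27.7% and 27.9% in Pdgfra-low cells. The summed level of the cardiac list was 88.7 to 89.8 CPM with FGF8+10 and 180.3 to 187.5 CPM with Mock in Pdgfra-positive libraries. In Pdgfra-low libraries it was 188.2 to 192.6 CPM with FGF8+10 and 182.6 to 193.4 CPM with Mock, and TNNI3 was at 0 in all. The most abundant gene of the list, ACTC1, was higher with FGF8+10 in both gates, at 58.9 and 59.4 CPM against 18.4 and 19.6 CPM with Mock in Pdgfra-positive libraries and at 172.8 and 177.1 CPM against 28.0 and 30.7 CPM in Pdgfra-low libraries. The part of such cells in the level of CRYAB was not tested. Among the other small heat shock genes, HSPB7, which is made in heart, had 18.5 ± 0.45 CPM with Mock against 2.66 ± 0.21 with FGF8+10 in Pdgfra-positive cells, and 16.1 ± 0.020 against 1.29 ± 0.28 CPM in Pdgfra-low cells. HSPB6 had 30.6 ± 1.5 against 12.7 ± 0.81 and 19.9 ± 0.019 against 9.23 ± 0.49 CPM in the same order. Both were lower with FGF8+10 in each gate by edgeR's test. Only 3 of the 7 genes in this list had enough counts to be tested. The remaining tested gene, HSPB11, was higher with FGF8+10 in Pdgfra-positive cells (log2 fold change 0.21, edgeR adjusted p = 0.0214). In Pdgfra-low cells HSPB11 had -0.0003, not called.

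HSPB1 and HSPB8 went opposite ways. HSPB1, the widely expressed HSP27, stood at 194 and 194 CPM in Mock Pdgfra-positive, 200.3 and 199 CPM in Mock Pdgfra-low, 162 and 157 CPM in FGF8+10 Pdgfra-positive and 169 and 169 CPM in FGF8+10 Pdgfra-low libraries, and fell by 0.28 and 0.24 in the 2 gates. HSPB8, which works with BAG3 in clearing damaged filaments, stood at 17.6 and 17.8, 13.3 and 13.9, 24.2 and 23.5, and 19.4 and 18.1 CPM in the same order, without overlap. It rose with FGF8+10 by 0.43 and 0.46 and was higher in Pdgfra-positive cells by 0.35 with FGF8+10 and 0.38 with Mock. The difference of effects was not called for HSPB1 or HSPB8 (edgeR adjusted p = 0.52 and 0.892).

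The HSP40 genes encode partners that bring clients to HSP70 and start its ATP cycle. DNAJA1 (chr9:33025273-33039907, plus strand) stood at 245 and 251 CPM in Mock Pdgfra-positive, 291 and 287 CPM in Mock Pdgfra-low, 205 and 210.5 CPM in FGF8+10 Pdgfra-positive and 327 and 333 CPM in FGF8+10 Pdgfra-low libraries, the same order as HSPD1 and without overlap. It fell by 0.26 and rose by 0.19 with FGF8+10 in Pdgfra-positive and Pdgfra-low cells, a difference of effects of -0.45 ± 0.036 (edgeR adjusted p = 4.68e-14). DNAJB1, the heat-inducible HSP40, stood at 109 and 110.4 CPM in Mock Pdgfra-positive, 103 and 103 CPM in Mock Pdgfra-low, 67.7 and 69.5 CPM in FGF8+10 Pdgfra-positive and 72.9 and 76.5 CPM in FGF8+10 Pdgfra-low libraries, with every Mock library above every FGF8+10 library. It fell by 0.68 and 0.46, as did DNAJB4, a related gene, by 0.51 in each gate. DNAJB6, which keeps aggregation-prone chains apart, had log2 fold changes of 0.12 and 0.28, the first of them lost without Mock Pdgfra-positive replicate 2 (adjusted p = 0.0659), and DNAJA2 of -0.16 (called lower) and -0.00 (not called). The log2 fold change of DNAJA2 in Pdgfra-positive cells turned to 0.01 under library totals and was not called. The differences of effects for DNAJA2 and DNAJB6 (-0.16 and -0.16) were lost in 8 and 6 of 15 alternatives.

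All 3 cochaperones had a called difference of effects between the gates, each below 0, where 14% of all tested genes did. STIP1, which bridges HSP70 and HSP90 (chr11:64185272-64204543, plus strand), stood at 129 and 129.8 CPM in Mock Pdgfra-positive, 136 and 142 CPM in Mock Pdgfra-low, 108 and 110.0 CPM in FGF8+10 Pdgfra-positive and 174 and 177 CPM in FGF8+10 Pdgfra-low libraries, without overlap between groups. It fell by 0.25 and rose by 0.34 in the 2 gates, with a difference of effects of -0.59 ± 0.045 (edgeR adjusted p = 1.04e-14). AHSA1, which speeds the ATPase of HSP90, fell by 0.30 in Pdgfra-positive cells and was not called in Pdgfra-low cells (60.9 ± 0.70 CPM with Mock and 64.4 ± 0.55 with FGF8+10). BAG3, a nucleotide exchange factor of HSP70 that is induced by stress, stood at 58.4 and 59.6 CPM in Mock Pdgfra-positive, 60.8 and 60.8 CPM in Mock Pdgfra-low, 42.1 and 42.4 CPM in FGF8+10 Pdgfra-positive and 52.0 and 53.0 CPM in FGF8+10 Pdgfra-low libraries. It fell by 0.48 and 0.21, and the second of these calls was lost under library totals (-0.05, adjusted p = 0.374).

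The transcription factors themselves changed little. HSF1, which drives the heat shock response, stood at 55.4 and 54.0 CPM in Mock Pdgfra-positive, 54.8 and 51.7 CPM in Mock Pdgfra-low, 60.3 and 58.9 CPM in FGF8+10 Pdgfra-positive and 59.0 and 59.2 CPM in FGF8+10 Pdgfra-low libraries, so that the FGF8+10 libraries lay above the Mock libraries and the gates overlapped. It rose by 0.12 and 0.15 on the log2 scale (edgeR adjusted p = 0.0249 and 0.00539), calls that were lost under upper-quartile scaling (adjusted p = 0.161 and 0.123). The first was also lost without FGF8+10 Pdgfra-positive replicate 1 or Mock Pdgfra-positive replicate 2 (adjusted p = 0.0931 and 0.129), and the second without Mock Pdgfra-low replicate 2 (adjusted p = 0.1096). HSF2, a related factor active in development, rose by 0.20 in Pdgfra-positive cells, which was lost without replicate 2 of either group there (adjusted p = 0.0508 and 0.0578), and had -0.01 in Pdgfra-low cells, not called. RNA levels do not report the activity of these factors, which is set largely at the protein.

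Genes that work with the members were read from lists, as counts. Of 9 prefoldin and chaperonin helper genes, which hand actin and tubulin to CCT, 7 were higher and 0 lower with FGF8+10 in Pdgfra-positive cells and 8 and 0 in Pdgfra-low cells, and the difference of effects was below 0 in 4. The counts of 0 were also 0 at an unadjusted p under 0.05 and by DESeq2. The prefoldin gene VBP1 rose by 0.41 and 0.69. Of 17 actins, tubulins and tubulin cofactors, which hold the clients of CCT, 12 were higher and 2 lower in Pdgfra-positive and 14 and 3 in Pdgfra-low cells, and the difference was below 0 in 11 and above in 2. Beside both lists, 25.8% of all tested genes were higher and 25.1% lower in Pdgfra-positive cells, and 27.9% and 27.7% in Pdgfra-low cells. The difference was below 0 in 14% and above 0 in 12% of all tested genes. TUBA1A, an alpha-tubulin gene, stood at 134 ± 5.3, 176 ± 1.5, 242 ± 2.0 and 604 ± 34 CPM in Mock Pdgfra-positive, Mock Pdgfra-low, FGF8+10 Pdgfra-positive and FGF8+10 Pdgfra-low cells. As with the chaperonin, the highest level was in FGF8+10 Pdgfra-low cells.

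Other chaperone families were described by the same counts. The difference of effects was below 0 in 4 and above 0 in 0 of 9 other HSP70 genes, in 9 and 2 of 22 other HSP40 genes, in 10 and 4 of 21 other HSP90 and HSP70 cochaperones, in 9 and 3 of 26 genes of endoplasmic reticulum folding and in 3 and 0 of 13 genes of mitochondrial folding and proteolysis, where 14% and 12% of all tested genes were below and above 0. The counts of the last 2 lists above 0 are near or under the 12%. The 3 of 13 below 0 exceed 14%, but not the 25.7% of tested genes with a mean of at least 10 CPM. At an unadjusted p under 0.05 edgeR had 1 other HSP70 gene, HSPA12B, and 0 mitochondrial genes above 0, and DESeq2 called 0 of either. Among the cochaperones, FKBP5, an HSP90 partner and glucocorticoid target, was not called in Pdgfra-positive cells and rose by 1.10 in Pdgfra-low cells, while BAG2 fell by 1.66 and 1.94. HSPA6, a strictly heat-inducible HSP70, had few reads in every group, at 0.0847 ± 0.056, 0.0494 ± 0.023, 0.0222 ± 0.011 and 0.424 ± 0.093 CPM in the same order of groups. By edgeR's test it was higher with FGF8+10 in Pdgfra-low cells (adjusted p = 0.00668) and not called in Pdgfra-positive cells (adjusted p = 0.22), with a difference of effects below 0 (adjusted p = 0.0163). Among the genes of the unfolded protein response, HERPUD1 fell by 1.27 and 1.38 and DDIT3 by 0.98 and 1.53, whereas SDF2L1, a partner of BiP, rose by 0.34 and 0.90. Of the 13 genes of mitochondrial folding and proteolysis, 8 were lower and 2 higher with FGF8+10 in Pdgfra-positive cells, where 25.1% and 25.8% of all tested genes were, and 6 lower and 1 higher in Pdgfra-low cells, where 27.7% and 27.9% were.

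Several gene lists outside the chaperones also had differences of effects mostly below 0, while their directions with FGF8+10 differed. Of 25 cell cycle genes, all 25 were higher with FGF8+10 in each gate, and the difference of effects was below 0 in 20 and above 0 in 0. Of 21 ribosome biogenesis genes, 1 was higher and 18 lower in Pdgfra-positive cells, 5 were higher and 8 lower in Pdgfra-low cells, and the difference was below 0 in 18 and above 0 in 0. Of 16 immediate early genes that tissue dissociation can induce, 3 were higher and 10 lower in Pdgfra-positive cells, 6 higher and 7 lower in Pdgfra-low cells, and the difference was below 0 in 11 and above 0 in 0. KLF4, of that list, had log2 fold changes of -3.61 and -2.98. For these 3 lists the difference was above 0 in 0 genes also at an unadjusted p under 0.05 by edgeR and by DESeq2. Of all tested genes, 25.8% were higher and 25.1% lower in Pdgfra-positive cells, and 27.9% and 27.7% in Pdgfra-low cells. The difference was below 0 in 14% and above 0 in 12% of them. Among those with a mean of at least 10 CPM, 43.2% were higher and 34.7% lower in Pdgfra-low cells. All cells were dissociated for the sort, and the part of cell growth, division or dissociation in the chaperone values was not tested.

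**Figure D5:**
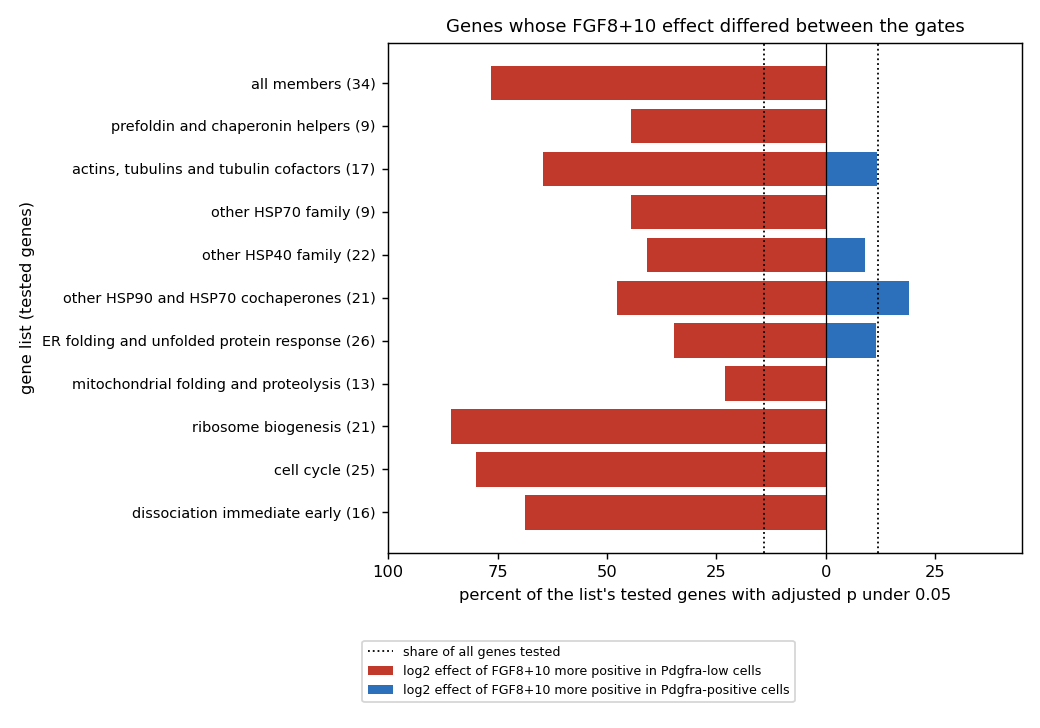
Percent of each list's tested genes whose FGF8+10 effect differed between the gates at an adjusted p under 0.05, to the left where the log2 effect was more positive in Pdgfra-low cells and to the right where it was more positive in Pdgfra-positive cells; the number tested stands in brackets and dotted lines mark all 22554 tested genes (14% and 12%). The 34 members, the ribosome biogenesis, cell cycle and immediate early lists and the actins and tubulins extend farthest to the left.

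Markers of other cell types also differed between the groups in which the chaperones differed. The summed level of 8 epithelial markers was 1293 to 1302 CPM in FGF8+10 Pdgfra-low, 471.7 to 475.5 CPM in FGF8+10 Pdgfra-positive, 1131 to 1136 CPM in Mock Pdgfra-low and 666.2 to 667.1 CPM in Mock Pdgfra-positive libraries, led by KRT8. That of 9 endothelial markers was 2574 to 2580, 2129 to 2139, 1362 to 1370 and 1329 to 1343 CPM in the same order, led by KDR, and that of 7 pluripotency markers was 285.7 to 286.6, 219.3 to 223.9, 107.2 to 109.5 and 133.8 to 136.2 CPM, led by LIN28A. All 3 sums were highest in FGF8+10 Pdgfra-low libraries, the group with the highest chaperone level. Single markers were mixed, with 2 of 7 tested epithelial markers higher and 2 lower with FGF8+10 in Pdgfra-low cells. Of 5 tested pluripotency markers 2 were higher and 2 lower, and of 9 endothelial markers 9 and 0. Of all tested genes 27.9% and 27.7% were. KRT8 stood at 744.6 and 729.0 CPM in FGF8+10 Pdgfra-low and 483.6 and 486.5 CPM in Mock Pdgfra-low libraries. LIN28A stood at 218.0 and 217.9 against 43.1 and 40.4 CPM. KDR stood at 1968 and 1970 against 1209 and 1202 CPM in the same groups. All 3 list sums leaned on these genes. The limb mesenchyme sum was lowest in FGF8+10 Pdgfra-low libraries, with 7 of 10 tested markers lower and 2 higher with FGF8+10 in these cells. Smooth muscle markers summed to 90.4 to 92.0 CPM in FGF8+10 Pdgfra-positive and 126.2 to 145.7 CPM in Mock libraries, and blood, skeletal muscle and neural markers stayed at or below 3.34 CPM in every library, with HBE1, HBG1, MYOG, MYF5 and MYF6 at 0. The part of these cells in the chaperone levels was not tested.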

How the data were processed

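RNA of 8 libraries, 4 groups of 2, was read from 1 table of raw read counts per gene name that the authors deposited. The submitters' processing notes name FastQC 0.11.8, the aligner HISAT2 2.1.0 and the build GRCh38. Per the file headers, featureCounts 2.0.3 counted reads over exons of GENCODE release 42 without strand, with both mates of a pair counted. Read trimming is not given in the sources used here. Libraries held 47698561 to 64390444 counts.

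Genes passing filterByExpr (22554 of 39416 with any count) were scaled by TMM in edgeR 4.0.16 (with limma 3.58.1, under R 4.3.3) and fitted by 1 robust quasi-likelihood model of 4 group means to the 8 libraries together, which left 4 residual degrees of freedom. Testing covered 5 two-sided contrasts, with Benjamini-Hochberg adjustment over all tested genes and calls under 0.05. Standard errors were recovered from each log2 fold change and its F statistic, as the size over the root of F. CPM are counts over the TMM-scaled library size, and levels between genes are per kilobase of annotated exon. Scripts were tested on simulated data. Alternatives were library totals, RLE and upper-quartile scaling, no filter, DESeq2 1.42.0, a fit without robust, the replicate block, 2 groups alone, and each library left out. Promoter windows come from RefSeq on GRCh38.p14.

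The members and all gene lists were chosen with earlier results of these data known. Members were all open to naming, other genes only as the 2 largest called rises and falls of a list in either treatment contrast, and markers by list and leading gene. The 1.5-fold rule, the coding length (GENCODE 29), the 3-unit match and the ER stress element were chosen after seeing the data.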

Additional observations from a re-analysis of the deposited data

Results flagged for a closer look

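The 26 members listed here are given because the log2 effect of FGF8+10 differed between Pdgfra-positive and Pdgfra-low cells by edgeR's test of that difference, at an adjusted p under 0.05 over all tested genes. Each value is the effect in Pdgfra-positive cells minus that in Pdgfra-low cells, with 2 libraries per group, and each was below 0.

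In the chaperonin the difference was -0.16 for TCP1, -0.46 for CCT2, -0.49 for CCT3, -0.13 for CCT4, -0.76 for CCT5, -0.34 for CCT6A, -0.33 for CCT7 and -0.19 for CCT8. Among the HSP90 genes it was -0.69 for HSP90AA1, -0.11 for HSP90AB1 and -0.29 for HSP90B1. In the HSP70 and HSP110 families it was -0.34 for HSPA4, -0.21 for HSPA5, -0.51 for HSPA8, -0.45 for HSPA9 and -1.01 for HSPH1. The mitochondrial chaperonin had -0.69 for HSPD1 and -1.02 for HSPE1, and the small heat shock gene CRYAB had -1.21. Among the HSP40 genes it was -0.45 for DNAJA1, -0.16 for DNAJA2, -0.22 for DNAJB1 and -0.16 for DNAJB6, and among the cochaperones -0.27 for BAG3, -0.59 for STIP1 and -0.38 for AHSA1.

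The calls of TCP1, CCT4, CRYAB, DNAJA2 and DNAJB6 were lost under at least 1 alternative analysis, and the other 21 held under all 15. For 8 of the 26 the 2 effects were called in opposite directions, lower in Pdgfra-positive and higher in Pdgfra-low cells. The share of all tested genes with such opposite calls was not computed. Genes of the cell cycle, of ribosome biogenesis and of the immediate early list also had differences below 0, called in 20 of 25, 18 of 21 and 11 of 16, and their part in these values was not tested.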

How the results depend on the processing

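Of 135 calls of members over the 5 contrasts, 111 kept direction and call under every alternative run, and 22 were lost under at least 1. Those of HSP90AA1 and DNAJA2 in Pdgfra-positive cells changed sign under library totals. By edgeR's test HSP90AA1 was then called higher (adjusted p = 0.00434), whereas DNAJA2 was not called (adjusted p = 0.846). Scaling by library totals gave 14 higher members in Pdgfra-positive cells in place of 9, and turned the log2 fold changes there to 0.16 for CCT5, 0.0682 for HSP90AA1, 0.16 for HSP90B1 and 0.0108 for DNAJA2, and in Pdgfra-low cells to 0.16 for both DNAJA2 and HSF2. Upper-quartile scaling turned HSPA5 to -0.053 in Pdgfra-low cells and HSP90AB1 to 0.0103 between the gates with FGF8+10. The number of members higher in Pdgfra-positive cells under Mock was 1 without the filter and 1 to 3 when a library was left out, against 3. Leaving out 1 library gave 6 to 9 higher in Pdgfra-positive and 19 to 20 in Pdgfra-low cells with FGF8+10, 24 to 28 lower between the gates with FGF8+10, 16 to 18 with Mock, and 22 to 25 differences of effects below 0. By library totals the members summed to 8554, 12174, 8591 and 9534 CPM in FGF8+10 Pdgfra-positive, FGF8+10 Pdgfra-low, Mock Pdgfra-positive and Mock Pdgfra-low cells, and the chaperonin to 1480, 2231, 1274 and 1491 CPM. Over coding length the highest chaperonin subunit was 1.79, 2.11, 2.17 and 2.02 times the lowest in that order. The cause of these shifts was not tested.

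With the replicate number as a block, the members higher and lower were 9 and 21, and 20 and 10, with FGF8+10 in the 2 gates, 1 and 29, and 3 and 17, between the gates with FGF8+10 and Mock, and 0 and 26 for the difference of effects. Deviations of equally numbered libraries correlated at -0.01 to 0.03. With 2 libraries per group this cannot show whether equally numbered libraries came from the same differentiation or sort, which the labels do not state. Coding length from the RefSeq protein table was not run, since that table was not used here. With 2 libraries per group, leaving out 1 assumes that the lone library varies like the other groups.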
